A study of Mus musculus with 6 samples.

Results

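The genes described here are 10 immediate early and AP-1 genes, *Fos*, *Fosb*, *Jun*, *Junb*, *Jund*, *Egr1*, *Egr2*, *Ier2*, *Atf3* and *Nr4a1*, among the 17193 genes listed for each library. They were taken by gene symbol through their Ensembl identifiers, and 10 of the 10 had a row. RNA was sequenced from astrocytes isolated from the brains of wild-type C57BL/6 mice aged 3 months, with 3 libraries from mice labelled Mock, which the study calls saline, and 3 from mice given quinpirole, an agonist of the dopamine receptor DRD2. The cells were collected with anti-ACSA-2 microbeads after enzymatic digestion of minced brain, a step that both groups share. The labels give neither the dose nor the time of quinpirole for these mice, and they do not say whether the libraries of a group came from separate mice or from pools, so p-values measure the spread between libraries, which may be technical.

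Immediate early genes are transcribed within minutes of a stimulus, without new protein synthesis, when kinase cascades act on SRF and its ternary complex partners and on CREB, which are already bound or present in the nucleus. Proteins of the FOS and JUN families then pair through leucine zippers into AP-1, a transcription factor that binds the letters TGANTCA, while EGR proteins are zinc finger factors and NR4A1 is an orphan nuclear receptor. In the brain these genes are widely used as marks of recent activity in neurons, and in glia they also respond to growth factors, injury and the handling of tissue. DRD2 couples to inhibitory G proteins and to arrestins, and the comparison of the groups asks how transcription in astrocytes differed after this receptor had been stimulated.

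The deposited values were FPKM, fragments scaled by transcript length and by library depth, and their steps at low values gave an estimated depth of 22100000 to 27400000 fragments per library. Libraries of the same group differed by more than sampling noise, with a median chi-square of 2.68 to 4.06 times the chance value for pairs within a group and of 4.82 to 7.71 times for pairs across groups. Of 12 astrocyte markers, 12 had at least 5 FPKM in every library, with *Gfap* at 482 to 560 FPKM. Of 10 endothelial and mural markers, 6 were under 1 FPKM in every library, *Pecam1* and *Rgs5* among them. The smooth muscle actin gene *Acta2*, from the same list, stood at 2518 to 2881 FPKM. After quinpirole 8 of the 12 astrocyte markers had lower means, and 2 were past the threshold (adjusted p under 0.05 from limma), beside 10.9% of all tested genes. These were *Atp1b2*, which encodes ACSA-2 (log2 fold change -0.19), and the glutamate transporter gene *Slc1a2* (log2 fold change -0.42). Of 10 microglial markers, 10 had at least 1 FPKM in every library, and their summed FPKM was 890 to 962 in the mock libraries and 951 to 1048 in the quinpirole libraries. Of 10 neuronal markers, 7 were under 1 FPKM in every library, and *Snap25* and *Rbfox3*, which define neurons, did not exceed 0.0773 and 0.0495 FPKM. The summed FPKM of the neuronal list was 74.0 to 79.3 in the mock libraries and 86.4 to 92.9 in the quinpirole libraries, and that of the oligodendrocyte list 470 to 482 and 493 to 514. The part of other cell types in the results was not tested. In bulk RNA, fewer cells of a type and less RNA per cell cannot be told apart.

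The promoters of 8 of the 10 genes were available from RefSeq on GRCm38.p6, as windows from 250 bases before to 50 bases after an annotated start; *Egr1* and *Ier2* were not among them. Of these windows, 3 are shown because they belong to *Nr4a1*, which had the largest log2 fold change of the tested genes, to *Fos*, which had the smallest range over the libraries, and to *Egr2*, whose groups did not overlap. Capitals mark TGACG, the core of the cAMP response element bound by CREB, together with TATAAA, the EGR site GCGNGGGCG and the CArG box bound by SRF, all searched on both strands, so that CGTCA is the same core on the other strand.
Nr4a1, chr15:101266596-101266895, plus strand: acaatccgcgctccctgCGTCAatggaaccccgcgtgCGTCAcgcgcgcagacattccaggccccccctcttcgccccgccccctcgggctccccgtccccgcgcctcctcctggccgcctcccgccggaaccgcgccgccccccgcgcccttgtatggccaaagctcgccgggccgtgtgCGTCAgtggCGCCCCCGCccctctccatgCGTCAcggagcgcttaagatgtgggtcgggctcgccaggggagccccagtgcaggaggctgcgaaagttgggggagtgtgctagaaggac
Fos, chr12:85473640-85473939, plus strand: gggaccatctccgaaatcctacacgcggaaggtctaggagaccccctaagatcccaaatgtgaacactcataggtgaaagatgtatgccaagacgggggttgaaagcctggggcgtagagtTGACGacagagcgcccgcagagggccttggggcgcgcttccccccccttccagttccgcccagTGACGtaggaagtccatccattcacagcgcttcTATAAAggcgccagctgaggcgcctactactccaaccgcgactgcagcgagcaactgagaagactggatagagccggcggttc
Egr2, chr10:67537619-67537918, plus strand: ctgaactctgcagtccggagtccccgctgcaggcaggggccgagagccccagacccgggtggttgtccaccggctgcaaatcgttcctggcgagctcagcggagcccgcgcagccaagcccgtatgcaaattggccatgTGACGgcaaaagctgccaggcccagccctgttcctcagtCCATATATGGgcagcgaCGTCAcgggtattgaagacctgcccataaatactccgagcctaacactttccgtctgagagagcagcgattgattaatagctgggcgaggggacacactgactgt
The window of *Nr4a1* held 4 copies of the TGACG core and 1 EGR site. That of *Fos* held 2 cores and 1 TATAAA, and the window shown for *Egr2*, 1 of 5 listed for this gene, held 1 CArG box with 1 core on each side. Of the other windows of *Egr2*, 2 overlap it and hold the same matches, 1 held another CArG box and no core, and 1 held no match. The windows of *Fosb*, *Junb* and *Atf3* held 1 core each, and that of *Jun* held 0. The windows of *Nr4a1* and *Atf3*, like that shown for *Egr2*, lie at starts inside the gene as GENCODE draws it, and the window of *Jund*, with 0 cores, ends before the GENCODE gene begins. Among 32841 windows of the same length in the reference, 20.8% held at least 1 core, 0.231% held at least 4, 5.55% held an EGR site, 13.6% held TATAAA and 1.63% held a CArG box. The complete element TGACGTCA, which contains the core and occurred in 1.79% of all windows, and the AP-1 site TGANTCA, which occurred in 7.81%, were found in 0 windows of these 8 genes. These are matches of letters in a short window and were not read as binding sites.

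None of the 8 immediate early and AP-1 genes that were tested was past the threshold between the groups, and the difference of the quinpirole mean from the mock mean ran from -6.50% for *Egr1* to 31.5% for *Nr4a1*. On the scale of log2(FPKM + 1), 8 of the 10 had a mean of at least 1 FPKM and entered the limma test across 12255 genes, and 0 of the 8 had a Benjamini-Hochberg adjusted p under 0.05, whereas 10.9% of all tested genes did (5.74% higher and 5.18% lower after quinpirole). At an unadjusted p under 0.05 there was 1, *Nr4a1*, against 31.3% of all tested genes. The median log2 fold change of the 8 was 0.07, with 5 higher and 3 lower means, beside a median of 0.02 for all tested genes. The quinpirole libraries lay wholly above the mock libraries for 2 of the 8, *Nr4a1* and *Ier2*, and wholly below them for 0, while 20.0% and 16.9% of all tested genes were apart in these directions, or 36.9% in all. *Fosb* and *Egr2*, the remaining pair, had means under 1 FPKM. Without a filter on low values they were tested too, and limma called 0 of the 10 genes at the same threshold, against 3.68% of the 17193 listed genes. At an unadjusted p under 0.05 there were then 2 of the 10 and 24.9% of all listed genes.

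**Figure D1:**
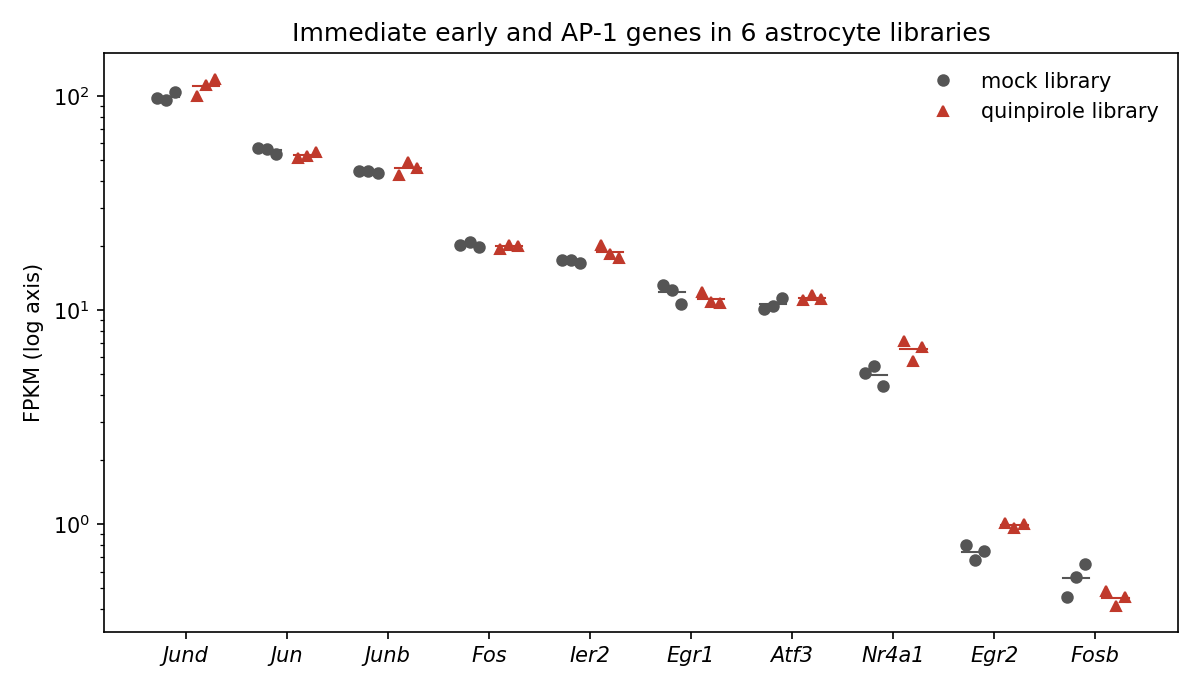
FPKM on a log axis of the 10 immediate early and AP-1 genes, ordered by mean level, with 1 circle per mock library, 1 triangle per quinpirole library and a line at each group mean. The order runs from *Jund* at a mean of 105 FPKM to *Fosb* at 0.505 FPKM, and the groups are apart for *Ier2*, *Nr4a1* and *Egr2*.

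The genes differed far more from each other than between the groups. In mean FPKM, which is a level per length and can be compared between genes, the order was *Jund* (105), *Jun* (54.3), *Junb* (45.1), *Fos* (20.0), *Ier2* (17.8), *Egr1* (11.7), *Atf3* (10.99), *Nr4a1* (5.78), *Egr2* (0.866) and *Fosb* (0.505). Over the 6 libraries, the ranges of *Fos* and *Ier2* overlapped, as did those of *Egr1* and *Atf3*, and all other neighbours in this order were apart. Among the tested genes *Jund* stood at the 94.9th percentile of mean level, *Jun* at the 88.5th and *Fos* at the 67.4th. In FPKM, the JUN family genes *Jun*, *Junb* and *Jund* together reached 194 to 221, and the FOS family genes *Fos*, *Fosb*, *Fosl1* and *Fosl2* together 41.3 to 44.2. JUN family transcripts therefore exceeded those of the FOS family by a ratio of 4.63 ± 0.208 (SD, n = 3) in the mock group and 4.99 ± 0.26 (SD, n = 3) in the quinpirole group, and the groups overlapped in this ratio.

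*Fos* (ENSMUSG00000021250, chromosome 12, 85473890 to 85477273 on GRCm38), which encodes the founding member of the FOS family, had 20.1, 20.7 and 19.7 FPKM in the mock libraries, in the order of their numbers, and 19.4, 20.2 and 19.95 FPKM in the quinpirole libraries. The 6 libraries were nearly level, with a whole range of 6.58% of the mean, and the groups overlapped. The log2 fold change was -0.02 (standard error 0.04, 95% interval -0.12 to 0.07, adjusted p = 0.741 from limma), and it was -0.11 (adjusted p = 0.182 from limma) after a correction of each library for transcript length. The residual SD between libraries of a group was 0.03 on the log2 scale, and 6.74% of all tested genes had a smaller one. An estimated 1037 to 1333 fragments per library stood behind these values. *Fosb* (ENSMUSG00000003545, chromosome 7, 19302696 to 19310051), its close relative and the source of the long-lived truncated form known from the striatum, had 0.458, 0.563 and 0.649 FPKM in the mock libraries and 0.488, 0.416 and 0.456 FPKM in the quinpirole libraries. The groups overlapped, and with an estimated 63 to 102 fragments per library the counting error alone reached 12.6%. Without a filter on low values, the log2 fold change of *Fosb* was -0.10 (adjusted p = 0.315 from limma).

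The JUN genes were the most abundant of the set. *Jun* (ENSMUSG00000052684, chromosome 4, 95049034 to 95052222), the partner of FOS in the classical AP-1 dimer, had 57.1, 56.7 and 53.4 FPKM in the mock libraries and 51.2, 52.4 and 54.7 FPKM in the quinpirole libraries. Mock libraries 1 and 2 were highest, but quinpirole library 3 lay above mock library 3, so the groups overlapped. For *Jun* the log2 fold change was -0.08 (standard error 0.04, 95% interval -0.18 to 0.02, adjusted p = 0.27 from limma). It was -0.13 after the length correction and -0.13 with quantile normalization. *Junb* (ENSMUSG00000052837, chromosome 8, 84974484 to 84978718), which often restrains the activity of JUN, had 44.6, 44.6 and 43.5 FPKM in the mock libraries and 42.9, 49.0 and 46.3 FPKM in the quinpirole libraries. The lowest and the highest of the 6 values both came from the quinpirole group. Its log2 fold change was 0.06 (95% interval -0.07 to 0.18, adjusted p = 0.496 from limma), and it was -0.03 after the length correction. *Jund* (ENSMUSG00000071076, chromosome 8, 70698949 to 70700616), the JUN gene that is expressed in most resting cells, had 97.9, 95.9 and 104.2 FPKM in the mock libraries and 99.9, 113.0 and 119.6 FPKM in the quinpirole libraries. Quinpirole libraries 2 and 3 were highest, and quinpirole library 1 fell within the range of the mock group. For *Jund* the log2 fold change was 0.15 (standard error 0.07, 95% interval -0.01 to 0.31, adjusted p = 0.171 from limma) and 0.05 after the length correction.

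Reads of some of these genes may be shared with neighbours, since no source says that strand was used in counting. The exons of *Jun* overlap those of *Junos* over 232 bases, and those of *Junb* overlap those of *Prdx2* over 173 bases. *Prdx2* had 152, 163 and 171 FPKM in the mock libraries and 176, 185 and 175 FPKM in the quinpirole libraries. The part of its reads in the values of *Junb* was not tested. The exon of *Jund* overlaps *Gm11175* over 877 bases, although *Gm11175* was listed at no more than 0.467 FPKM. In words of 50 bases, 0.0% of the longest transcript of each of the 10 genes also occurred in transcripts of other genes. Words were compared in the direction of transcription alone, so overlaps with genes on the opposite strand could not show in this share.

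The zinc finger genes *Egr1* and *Egr2* differed in level and in how the groups lay. *Egr1* (ENSMUSG00000038418), a main sensor of growth factor and calcium signals, had 13.1, 12.5 and 10.7 FPKM in the mock libraries and 12.2, 10.9 and 10.8 FPKM in the quinpirole libraries. The groups overlapped, with mock library 3 below all others. Its log2 fold change was -0.09 (standard error 0.08, 95% interval -0.28 to 0.11, adjusted p = 0.511 from limma) and -0.10 after the length correction. With single libraries left out it ranged from -0.17 to -0.03. *Egr2* (ENSMUSG00000037868, chromosome 10, 67535475 to 67542188), best known for its part in myelination by Schwann cells, had 0.797, 0.681 and 0.746 FPKM in the mock libraries and 1.01, 0.959 and 1.00 FPKM in the quinpirole libraries. Every quinpirole library lay above every mock library, as 29.4% of all listed genes were apart in either direction. Its mean of 0.866 FPKM was under the filter, and the unfiltered log2 fold change was 0.19 (adjusted p = 0.0635 from limma), with an estimated 63 to 92 fragments per library and a counting error of up to 12.6%. *Egr3* and *Egr4*, the other genes of the family, were under 1 FPKM in every library.

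*Ier2*, *Atf3* and *Nr4a1* had higher means after quinpirole, none of them past the threshold. *Ier2* (ENSMUSG00000053560, chromosome 8, 84661331 to 84662852), a small nuclear protein gene that follows growth factor stimulation, had 17.1, 17.1 and 16.6 FPKM in the mock libraries and 20.2, 18.3 and 17.5 FPKM in the quinpirole libraries. The mock libraries were close together and all 3 quinpirole libraries lay above them. The log2 fold change of *Ier2* was 0.13 (standard error 0.06, 95% interval -0.01 to 0.27, adjusted p = 0.171 from limma) and 0.02 after the length correction. *Atf3* (ENSMUSG00000026628, chromosome 1, 191170296 to 191218039), a bZIP factor of the stress response that can pair with JUN proteins, had 10.1, 10.4 and 11.3 FPKM in the mock libraries and 11.1, 11.7 and 11.3 FPKM in the quinpirole libraries. Mock library 3 lay within the quinpirole range. The log2 fold change was 0.09 (95% interval -0.04 to 0.22, adjusted p = 0.305 from limma) and 0.0005 after the length correction.

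*Nr4a1* (ENSMUSG00000023034, chromosome 15, 101254269 to 101274795), an orphan nuclear receptor also called Nur77, came nearest to the threshold. It had 5.06, 5.47 and 4.43 FPKM in the mock libraries and 7.17, 5.79 and 6.72 FPKM in the quinpirole libraries. Every quinpirole library lay above every mock library, and the mean went from 4.99 ± 0.524 FPKM (SD, n = 3) to 6.56 ± 0.704 FPKM (SD, n = 3). The log2 fold change was 0.34 (standard error 0.09, 95% interval 0.12 to 0.55), with an unadjusted p of 0.0082 and an adjusted p of 0.0603, both from limma. Over the 17 alternative settings the adjusted p from limma ranged from 0.0501, with robust estimation, to 0.202, with the replicate block and the length correction together, and the log2 fold change from 0.27 to 0.41, with 0.29 after the length correction. *Nr4a1* varied more between libraries of a group than most genes, since 81.5% of all tested genes had a smaller residual SD. Its family relative *Nr4a3* went from 3.23 ± 0.227 to 2.56 ± 0.178 FPKM (SD, n = 3 each; log2 fold change -0.25, adjusted p = 0.0692 from limma), and *Nr4a2* was under 1 FPKM in every library.

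No single library carried the whole set. Quinpirole library 1 was the highest of the 6 for *Egr2*, *Ier2* and *Nr4a1* but the lowest for *Fos*, *Jun* and *Junb*. Mock library 3 was the lowest for *Egr1*, *Ier2* and *Nr4a1* and the highest for *Fosb*. Averaged over the 8 tested genes, the z-score was -0.10, 0.03 and -0.58 for the mock and -0.05, 0.38 and 0.32 for the quinpirole libraries, and the groups overlapped. Whether digestion and sorting set the levels of these genes cannot be told apart from their levels in the tissue, since every library passed through both steps.

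**Figure D2:**
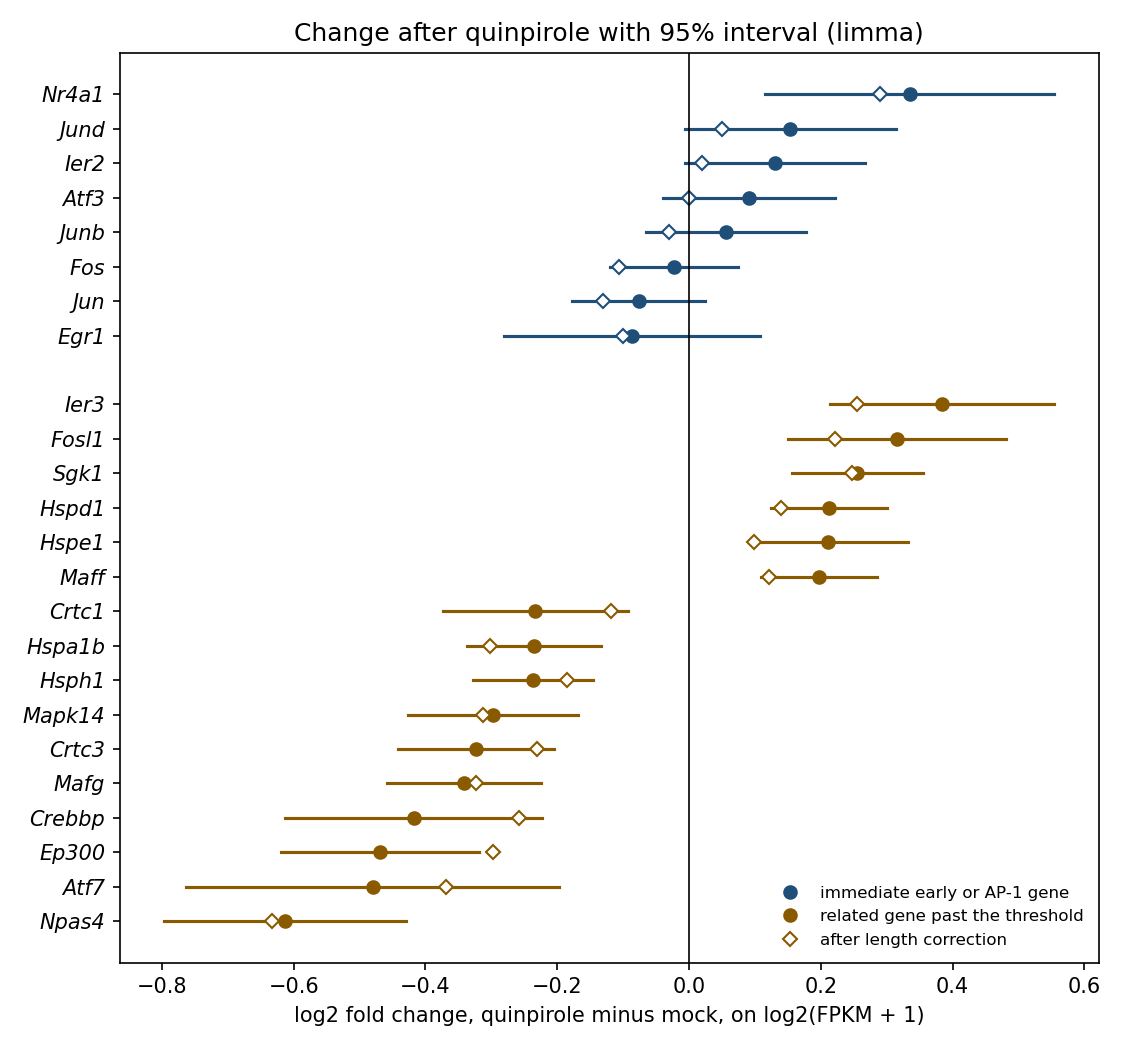
Log2 fold changes on the log2(FPKM + 1) scale with 95% intervals from limma for the 8 tested immediate early and AP-1 genes (blue) and for the 16 related genes past the threshold (brown), with open diamonds for the value after the transcript length correction. Of the 8 intervals of the first group, that of *Nr4a1* (0.12 to 0.55) leaves out 0, while its adjusted p was 0.0603.

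Ratios within a library do not depend on the scaling of that library, and the groups were apart in some ratios between family members. These ratios were chosen after the values had been seen and are given without a test. Among single tested genes, 36.9% were apart in either direction, and no such share was taken for ratios. *Nr4a1* exceeded *Nr4a3* by a ratio of 1.46, 1.71 and 1.47 in the mock libraries and of 2.94, 2.33 and 2.43 in the quinpirole libraries, with no overlap of the groups. The ratio of *Fosl1* to *Fosl2*, genes of the FOS-related antigens FRA-1 and FRA-2, was 0.187, 0.20 and 0.197 in the mock libraries and 0.285, 0.267 and 0.29 in the quinpirole libraries, again without overlap. *Fosl1* has 2033 exonic bases and *Fosl2* 9680, and the length correction took the log2 fold change of *Fosl1* from 0.32 to 0.22 and that of *Fosl2* from -0.13 to -0.04. The ratio of *Egr1* to *Egr2* averaged 16.3 ± 2.0 (SD, n = 3) after mock and 11.4 ± 0.597 (SD, n = 3) after quinpirole without overlap, and it rests on the few fragments of *Egr2*. For *Jund* and *Jun*, in contrast, the groups touched, with ratios of 1.69 to 1.95 in the mock libraries and from 1.95 to 2.18 in the quinpirole libraries. The groups also overlapped in the ratio of *Fos* to *Fosb*, at 30.3 to 43.9 after mock and 39.7 to 48.5 after quinpirole. They overlapped as well in that of *Ier3* to *Ier2*, at 0.739 to 0.913 and 0.881 to 1.08.

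**Figure D3:**
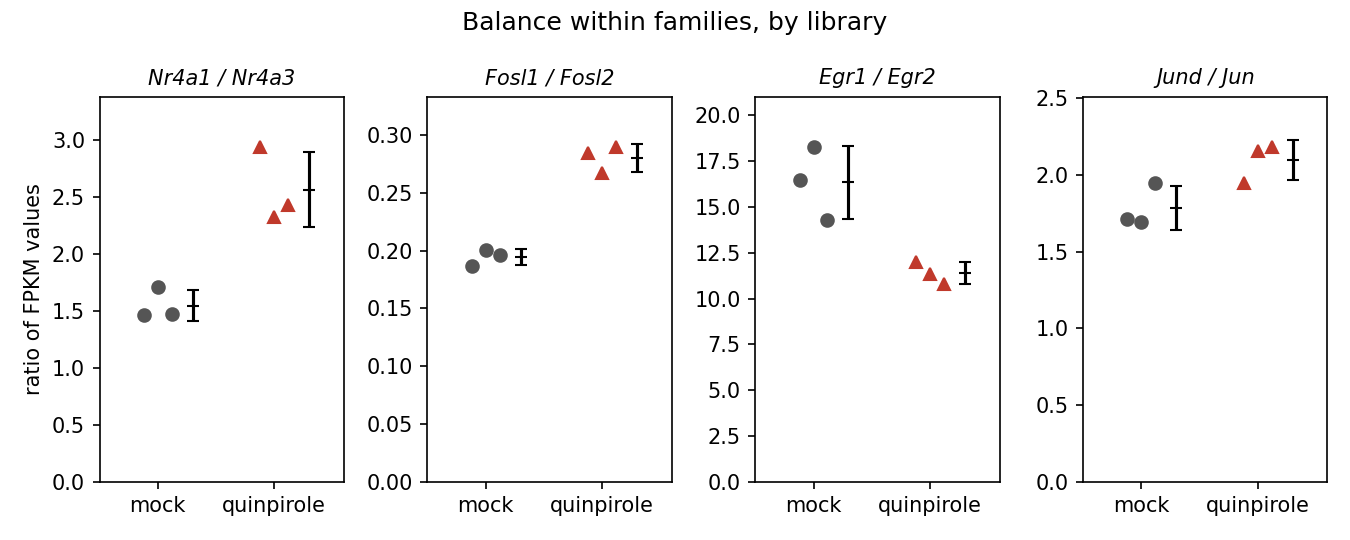
Ratios of FPKM values between family members in each library, with circles for mock, triangles for quinpirole and bars for the mean ± SD of 3 libraries; each axis starts at 0. The mean ratio of *Nr4a1* to *Nr4a3* was 1.55 in the mock group and 2.57 in the quinpirole group, and that of *Fosl1* to *Fosl2* was 0.195 and 0.28.

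Other genes of the AP-1 and bZIP families were mixed in direction. Of 17 such genes, 15 were tested and 4 were past the threshold, 2 higher and 2 lower, beside 10.9% of all tested genes. Their median log2 fold change was -0.01, against 0.02 for all tested genes. Each call named in this list and in the related lists was lost in at least 4 of the 6 fits that left out 1 library. *Fosl1*, which encodes FRA-1, rose from 3.63 ± 0.188 to 4.77 ± 0.368 FPKM (SD, n = 3 each; log2 fold change 0.32, adjusted p = 0.0383 from limma). *Maff*, a small MAF gene without a transactivation domain, rose from 50.5 ± 1.51 to 58.0 ± 1.04 FPKM (log2 fold change 0.20, adjusted p = 0.0278 from limma). *Mafg*, another small MAF gene and a partner of Nrf2, fell from 22.9 ± 0.87 to 17.8 ± 0.797 FPKM (log2 fold change -0.34, adjusted p = 0.0225 from limma). *Atf7*, a bZIP factor that pairs with JUN, fell from 18.9 ± 2.09 to 13.3 ± 2.20 FPKM (log2 fold change -0.48, adjusted p = 0.048 from limma). After the length correction *Mafg* was past the threshold, and *Fosl1*, *Maff* and *Atf7* were not. *Fosl2*, which encodes FRA-2, had 18.7 ± 0.961 and 17.0 ± 0.642 FPKM (log2 fold change -0.13, adjusted p = 0.148 from limma).

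Among 27 other immediate early genes, 24 were tested and 4 were past the threshold, beside 10.9% of all tested genes. Of the 4, 3 were higher and 1 lower, and *Maff* is counted here as well. The median log2 fold change was 0.09, with 18 higher and 6 lower means, and it was 0.04 after the length correction. *Npas4*, a bHLH-PAS factor known as a neuronal gene induced by calcium, had 3.07, 3.06 and 2.64 FPKM in the mock libraries and 1.71, 1.52 and 1.46 FPKM in the quinpirole libraries. All 3 quinpirole libraries lay far below the mock group, and the gene fell by 0.61 on the log2 scale (standard error 0.08, adjusted p = 0.0225 from limma). Of the 10 neuronal markers, the 3 that were tested had higher means after quinpirole (log2 fold changes of 0.17 to 0.22), with *Stmn2* past the threshold, and their part in the values of *Npas4* was not tested. *Ier3*, a stress and survival gene, had 14.7, 12.6 and 15.2 FPKM in the mock libraries and 17.8, 19.4 and 19.0 FPKM in the quinpirole libraries, and it rose by 0.38 on the log2 scale (adjusted p = 0.0274 from limma). *Sgk1*, a kinase gene that responds to glucocorticoids, rose from 71.6 ± 2.05 to 85.7 ± 3.51 FPKM (log2 fold change 0.26, adjusted p = 0.0247 from limma). *Ier3* was not past the threshold after the length correction, and *Npas4* and *Sgk1* were.

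Genes that end the immediate early response were mixed in direction, with 11 higher and 9 lower means. Of 21 feedback inhibitors and mRNA decay factors, 20 were tested and 0 were past the threshold in limma, beside 10.9% of all tested genes. At an unadjusted p under 0.05 in limma there were 4, beside 31.3% of all tested genes. The groups were apart for 5 of the 20, beside 36.9%, and the median log2 fold change was 0.03. *Dusp8*, a phosphatase gene acting on JNK, had 5.95 ± 0.398 and 4.94 ± 0.318 FPKM (adjusted p = 0.0749 from limma). *Dusp5*, which acts on nuclear ERK, had 10.7 ± 0.599 and 12.4 ± 0.0498 FPKM (adjusted p = 0.0505 from limma), and the receptor signalling inhibitor *Spry1* had 19.0 ± 2.88 and 21.5 ± 1.58 FPKM (adjusted p = 0.299 from limma). *Dusp5* was past the threshold in 2 of the 17 alternative settings.

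Upstream of the immediate early genes, the factors and coactivators of SRF, the ternary complex and CREB had mostly lower means. Of 16 genes tested, 13 had a lower mean. Past the threshold were 4, 4 of them lower and 0 higher, beside 10.9% of all tested genes. The median log2 fold change of the list was -0.12, and -0.08 after the length correction. *Ep300*, which encodes the acetyltransferase p300, fell from 13.4 ± 0.804 to 9.42 ± 0.57 FPKM (log2 fold change -0.47, adjusted p = 0.0225 from limma). *Crebbp*, the gene of the CREB-binding protein, fell from 5.80 ± 0.649 to 4.08 ± 0.256 FPKM (log2 fold change -0.42, adjusted p = 0.0298 from limma). *Crtc3* and *Crtc1*, genes of coactivators that carry cAMP signals to CREB, fell with log2 fold changes of -0.32 (adjusted p = 0.0236) and -0.23 (adjusted p = 0.0497), both from limma. Of these 4 genes, *Ep300* was past the threshold after the length correction and the others were not. *Srf* itself had 32.1 ± 0.912 and 32.1 ± 0.75 FPKM. Of 27 genes of the MAP kinase cascades, 27 were tested and 1 was past the threshold, beside 10.9% of all tested genes. It was *Mapk14*, the gene of p38 alpha, which fell from 24.0 ± 1.31 to 19.4 ± 0.911 FPKM (log2 fold change -0.30, adjusted p = 0.0262 from limma). *Braf* had 7.63 ± 0.574 and 5.85 ± 0.714 FPKM (adjusted p = 0.0553 from limma).

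**Figure D4:**
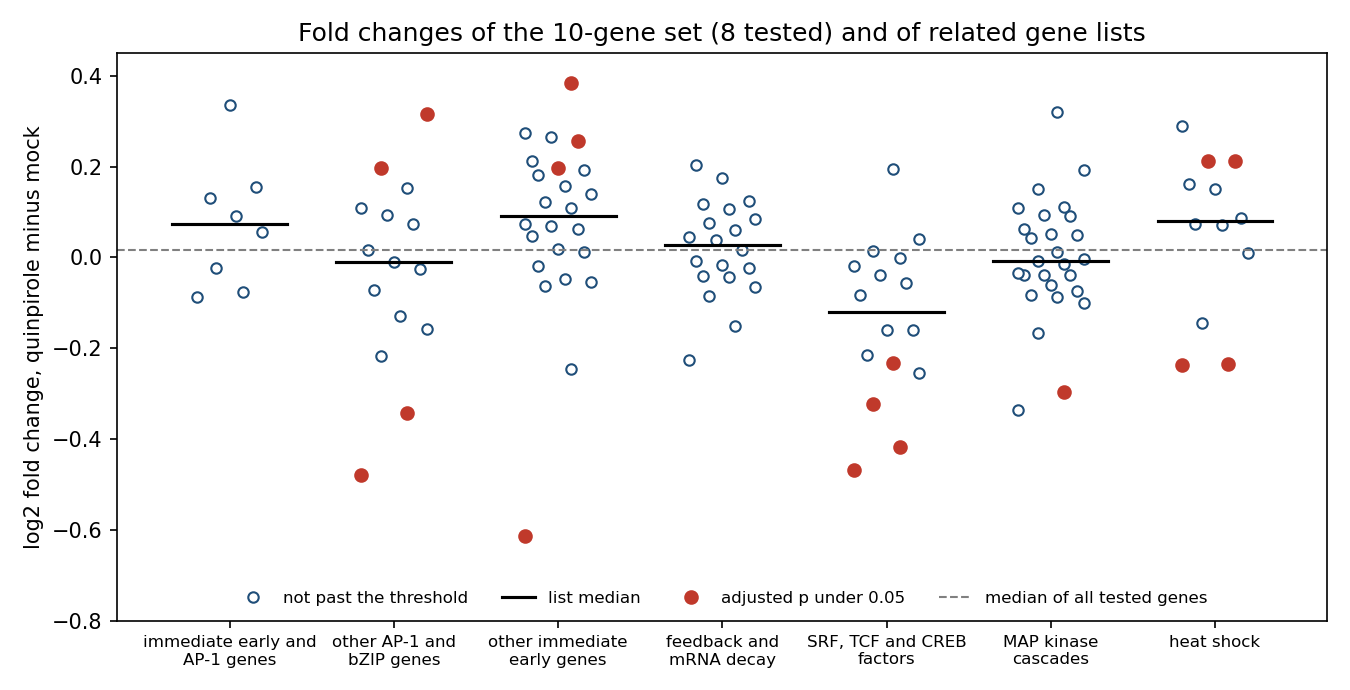
Log2 fold changes of every tested gene in the 10-gene set and in the 6 related lists, with filled points for adjusted p under 0.05, a bar at each list median and a dashed line at the median of all tested genes (0.02). No point of the 10-gene set is filled, and the list of SRF, ternary complex and CREB factors has the lowest median (-0.12). After the transcript length correction, not drawn here, that median was -0.08.

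Transcript length moved with these fold changes. The quintile of tested genes with the shortest exonic length (up to 2514 bases) had a median log2 fold change of 0.12 and that with the longest (from 7767 bases) one of -0.11. *Ier2*, *Jund*, *Atf3*, *Junb* and *Fos*, at 1522, 1668, 2154, 2301 and 2352 bases, belong to the short end, as does *Ier3* at 1131 bases. *Ep300* and *Crebbp*, at 14273 and 13540 bases, belong to the long end. With this trend removed from every library, 4.15% of all tested genes and 0 of the 8 immediate early and AP-1 genes were past the threshold, with 3 of the 8 and 25.8% of all tested genes at an unadjusted p under 0.05, and the median log2 fold change of the 8 was -0.01. Of the 16 related genes named as past the threshold in the 6 lists, 8 were still past it (*Mafg*, *Npas4*, *Sgk1*, *Ep300*, *Mapk14*, *Hspa1b*, *Hspd1* and *Hsph1*), and 16 of 16 kept their direction. Their calls also depended on which library was left out, as 13 of the 16 were past the threshold without mock library 3 and 3 without quinpirole library 3 (*Npas4*, *Sgk1* and *Ep300*). Without mock library 1, mock library 2, quinpirole library 1 or quinpirole library 2, 0 of the 16 were, with adjusted p-values from limma of at least 0.0721, 0.0905, 0.0548 and 0.0637. In every one of these fits 16 of 16 kept their direction.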

How the data were processed

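Per the labels, polyadenylated RNA of ACSA-2-selected astrocytes was made into libraries with a NEBNext Ultra kit. After trimming by the authors, paired-end reads were mapped with TopHat2, reads with more than 1 mismatch were dropped, and FPKM values were deposited for every gene in each library. The submitters' processing notes name GRCm38; the program and annotation behind the FPKM values are not given in the sources used here. Of 17193 identifiers, 17090 were matched to symbols, and positions, exonic lengths and transcripts came from GENCODE M21 on GRCm38. Depth was estimated from the steps of low FPKM values of long genes, so fragments per gene are approximate.

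Log2(FPKM + 1) of the 12255 genes with a mean of at least 1 FPKM was compared with limma 3.58.1 in R 4.3.3 (eBayes with a trend in the variance; two-sided tests; adjustment by Benjamini-Hochberg over all tested genes; threshold 0.05). The added 1 understates changes of weakly expressed genes. The length correction subtracted from each library a loess fit (span 0.3) of its deviations on log2 exonic length, which would also remove a true change related to length. The depth estimate and the limma fit were tested on simulated data. The 10 genes and all lists were chosen with earlier results of these data known. All 10 genes are named, and from each list every gene past the threshold, or, with fewer than 2, also the 3 with the largest change; other genes named were chosen after their values were seen. The genes with the most similar pattern over the libraries are not reported here. Alternatives were another pseudocount, other filters, scalings, variance models, a replicate block, corrections for length and GC content, and the omission of each library. Python 3.11.15 with numpy 2.4.6, pandas 2.3.3 and matplotlib 3.10.9 was used for tables and figures.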

Additional observations from a re-analysis of the deposited data

How the results depend on the processing

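Of the 8 tested immediate early and AP-1 genes, 0 had an adjusted p under 0.05 in limma in 17 of 17 alternatives, and *Fosb* and *Egr2* were tested in 1 of them. At an unadjusted p under 0.05 there were between 1 and 5, with 5 without mock library 3, where 32.0% of all tested genes passed. The sign changed for *Junb* alone, whose log2 fold change was -0.03 under the transcript length correction, and -0.03 also when the replicate block was added to it. The number of all genes past the threshold, 1339 as designed, fell to 509 once the transcript length correction was made, to 714 for eBayes without trend, to 783 after quantile normalization and to 633 if no filter on low values was set. It ranged from 3 (without mock library 2) to 1215 (without mock library 3) when single libraries were left out. The share of higher genes among them was 52.6% as designed, 41.0% for eBayes without trend and 36.1% after quantile normalization (283 against 500 lower genes). The GC content correction gave 1351 genes (51.6% higher). Beyond length and GC content, the cause was not tested. The median log2 fold change of all genes stayed between 0.00 and 0.03.

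Adding the replicate block left 2 genes past the threshold (3308 at an unadjusted p under 0.05), and the block joined to the length correction left 0 in limma (2723 at an unadjusted p under 0.05). The labels give no link between same-numbered libraries other than the number. Their deviations from the group mean correlated at -0.0475 on average, against 0.0238 for other numbers. Mock libraries 1, 2 and 3 correlated best with quinpirole libraries 3, 1 and 2, at 0.0743, 0.0341 and 0.155. The same pairs were best from the quinpirole side. Of 492 values of the 31 named genes under the alternatives, 349 kept direction and side of the threshold, 136 lost it, 5 gained it and 2 changed sign. *Fosb* and *Egr2* are limited by depth.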

Other observations

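Heat shock genes, which like immediate early genes respond to the handling of tissue, had mostly higher means. Of 12 such genes, 12 were tested, and 9 had higher and 3 lower means. The median log2 fold change was 0.08, and 0.05 after the length correction. Past the threshold were 4, 2 higher and 2 lower, beside 10.9% of all tested genes. *Hspd1* and *Hspe1*, the genes of the mitochondrial chaperonin and its cofactor, rose from 58.2 ± 1.38 to 67.6 ± 1.86 FPKM and from 75.8 ± 2.65 to 88.0 ± 5.33 FPKM (SD, n = 3 each), with log2 fold changes of 0.21 each and adjusted p-values of 0.0251 and 0.0451 from limma. *Hspa1b*, the inducible Hsp70 gene, and *Hsph1*, a gene of its exchange factor, fell from 15.7 ± 0.265 to 13.2 ± 0.326 FPKM and from 30.4 ± 0.462 to 25.6 ± 0.701 FPKM, with log2 fold changes of -0.24 each and adjusted p-values of 0.0258 and 0.0246 from limma. *Hspa1b* has a near-identical copy, *Hspa1a*, so its FPKM is uncertain.

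A pair of genes split the libraries in a way that the groups do not explain, and the second was picked out after its values were seen. *Mapk8*, the gene of JNK1, which phosphorylates JUN, had 3.31, 7.27 and 3.36 FPKM in the mock libraries and 3.84, 6.84 and 6.96 FPKM in the quinpirole libraries, and 99.0% of all tested genes had a smaller residual SD. *Dnajb4*, a co-chaperone gene, had 23.1, 12.3 and 24.9 FPKM after mock and 25.4, 14.8 and 26.8 FPKM after quinpirole. Its low value in each group came from the library of the same number. Over all tested genes, the deviations of mock library 2 and quinpirole library 2 from their group means correlated at -0.0657. The cause of the low values was not tested.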
